A study of Mus musculus with 6 samples.

Results

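Macrophage genes were read in whole adrenal glands through 10 markers, Csf1r, Mpeg1, Cd68, C1qa, C1qb, C1qc, Lyz2, Adgre1, Cd14 and Ctss, which were listed by symbol and found on the array through their Entrez identifiers. All 10 had a probe set, out of 8251 named genes on the array. Together they held 17 of its 12422 probe sets, of which 16 named 1 gene and 1 named both Lyz1 and Lyz2. The glands came from chromogranin A (Chga) knockout mice (3 arrays) and wild-type mice (3 arrays), all male and 12 weeks old. The labels name both as mice of one published study. The genetic background, and whether the deletion is confined to any cell type, were not given in the sources used here. Each array was read as 1 mouse, since the series describes 3 mice per genotype.

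The adrenal gland holds resident macrophages among the steroid-producing cells of its cortex and the chromaffin cells of its medulla, and the knockout removes a protein of the chromaffin granules. Macrophages live on signals through the receptor encoded by Csf1r, whose ligands are Csf1 and Il34. They take up dead cells and debris, digest them in lysosomes with enzymes such as cathepsin S, and in tissues are a main source of C1q, which starts the classical complement pathway. In a whole gland, more macrophages and more RNA of these genes per macrophage cannot be told apart.

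The knockout arrays did not form one group for these genes, and 2 of them stood apart by other measures. Chga itself, on its brighter probe set, gave signals of 1188, 858 and 951 on knockout arrays 1 to 3, against 46719, 30213 and 35306 on wild-type arrays 1 to 3. Skeletal muscle actin, Acta1, read 565, 32131 and 13869 on knockout arrays 1 to 3, against 180, 180 and 29.1 on the wild-type arrays. The liver transcript Alb read 504, 2909 and 2811 on the knockout arrays, against 709, 678 and 832 on the wild-type arrays. Other liver genes did not share this pattern. Cyp2e1, Cps1 and Apoa1 were each highest on a wild-type array, and Ttr read 370 on knockout array 3 against 521 on wild-type array 3. The 3' signal of the control transcript Gapdh over its 5' signal, a sign of RNA or cRNA integrity, was 0.831, 1.30 and 1.29 on the knockout arrays, against 0.794, 0.762 and 0.806 on the wild-type arrays. Knockout arrays 2 and 3 were thus high in all 3 measures. Knockout array 1 lay above the wild-type arrays in Acta1, below them in Alb and just above them in the Gapdh ratio. All 6 arrays carried the transcripts of their tissue. The steroid 21-hydroxylase gene Cyp21a1 read between 85758 and 134200 on knockout arrays and between 81601 and 107113 on wild-type arrays, and the granin gene Chgb read at least 69305 on every array. Median signals were between 954 and 1093.

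The markers had higher values in the knockout glands, but no member passed the test. Of the 17 probe sets, 12 were bright enough to be tested, and they stood for 9 of the 10 genes. By limma, 0 of the 12 had an adjusted p under 0.05, where 0.443% of all 7453 probe sets tested did. At an unadjusted p under 0.05, 4 of the 12 were higher and 0 were lower, and 5.06% of all probe sets tested were higher and 6.25% lower at that level. All 12 had a higher mean log2 value in the knockout, as had 48.9% of all probe sets tested. Over the brightest probe set of each of the 9 genes the median log2 change was 0.63, from 0.28 for Cd68 to 0.91 for Csf1r, and over all probe sets tested it was -0.01. The smallest adjusted p of a member was 0.186, that of Csf1r.

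That median came from 2 of the 3 knockout arrays. Set against the mean of the wild-type arrays, the 9 genes had a median log2 difference of -0.04 on knockout array 1, 1.13 on knockout array 2 and 0.88 on knockout array 3. Of the 9 genes, 4 were above the wild-type mean on knockout array 1, and all 9 were on each of the other two. On knockout array 2, 8 of the 9 exceeded every wild-type array, and on knockout array 3 all 9 did, where 27.2% and 31.1% of all probe sets tested exceeded every wild-type array. On knockout array 1, 3 of the 9 did, where 23.8% of all did. Knockout array 2 was the highest of the 6 arrays for 7 of the 9 genes, and the share of all probe sets tested for which it was highest was not counted. Without knockout array 1 the median was 0.94, and without knockout array 2 it was 0.37. With the log2 3' to 5' Gapdh ratio as a covariate the median was -0.20, with 3 of the 9 genes higher and a smallest adjusted p of 0.998 in limma. That ratio was high on knockout arrays 2 and 3 alone, so this fit cannot tell the ratio apart from those arrays. Its genotype difference rests largely on knockout array 1. The part of the muscle transcripts and of Alb in these values was not tested.

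**Figure D1:**
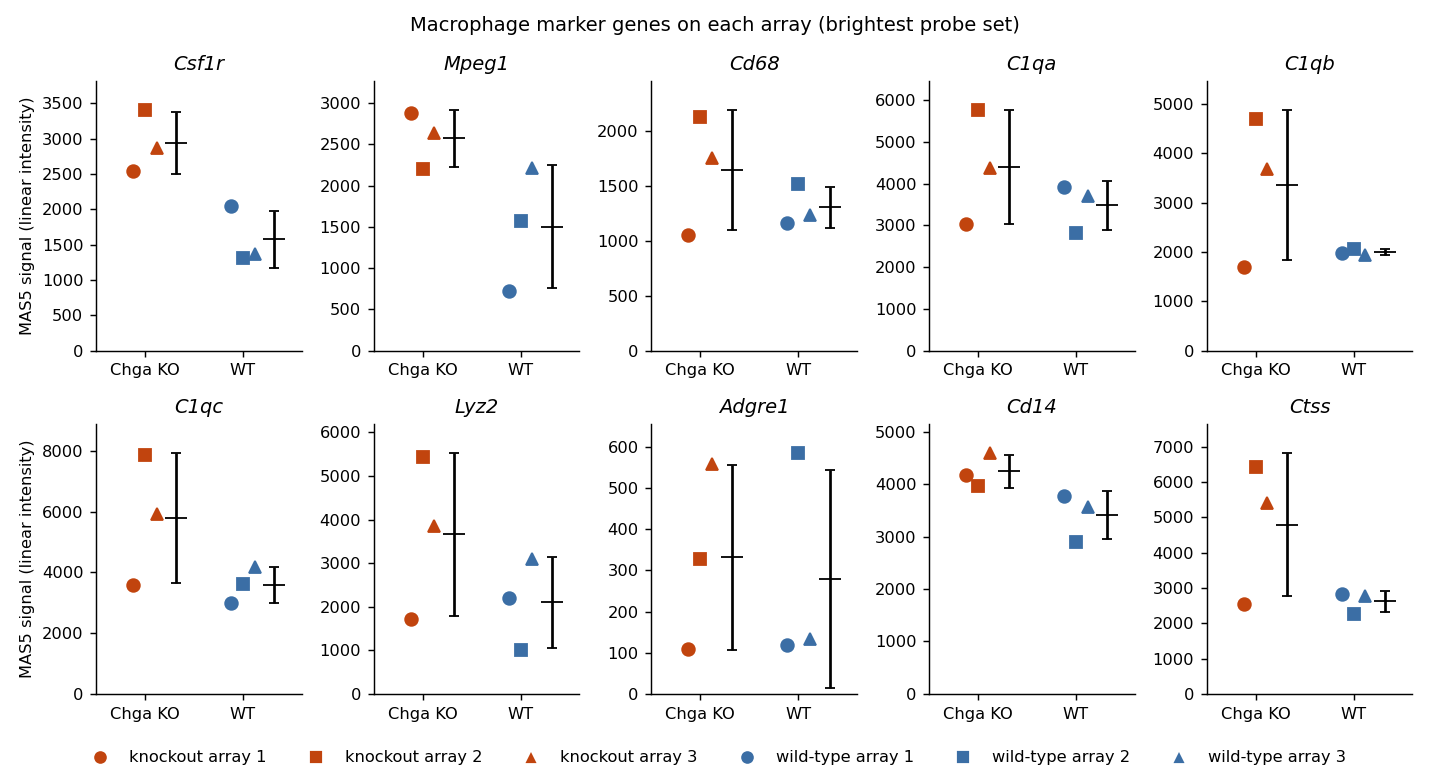
MAS5 signal (linear intensity, from 0) of the brightest probe set of each of the 10 markers on each array, knockout (Chga KO, orange) left of wild type (WT, blue). Symbols give the array number, and bars the mean and SD of 3 arrays. Knockout arrays 2 and 3 lie above knockout array 1 for Ctss, Lyz2, Cd68 and the 3 C1q genes, while Csf1r and Cd14 have all 3 knockout arrays above all wild-type arrays.

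The receptor gene came first in size. Csf1r, which encodes the receptor for colony stimulating factor 1 and is needed for most tissue macrophages to survive, read 2543, 3407 and 2863 on knockout arrays 1 to 3, against 2044, 1315 and 1369 on wild-type arrays 1 to 3. All 3 knockout arrays lay above all 3 wild-type arrays, which held for 2 of the 12 member probe sets and for 7.55% of all probe sets tested. Its mean was 2937 ± 437 in knockout glands and 1576 ± 406 in wild-type glands (SD, n = 3 each). The log2 change was 0.91 ± 0.22 (SE), a 1.88-fold difference, with an adjusted p of 0.186 in limma. With knockout array 1 as the only knockout array it was 0.71 ± 0.33 (limma adjusted p = 0.996), and without that array 1.01 ± 0.24 (0.0869). Its dimmer probe set, a design in which some of the selection rules for probes were relaxed, read 679, 409 and 1017 on the knockout arrays, against 509, 704 and 608 on the wild-type arrays. The groups overlapped there and the log2 change was 0.12 ± 0.38 (SE, limma adjusted p = 0.937). Its confidence interval, from -0.73 to 0.98, held the 0.91 of the brighter probe set, so the values cannot decide whether the 2 probe sets differ.

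Cd14, the co-receptor that hands bacterial lipopolysaccharide to Toll-like receptor 4, was the other gene whose groups did not overlap. It read 4172, 3969 and 4594 on knockout arrays 1 to 3, against 3771, 2906 and 3563 on the wild-type arrays. The difference was small, with a log2 change of 0.32 ± 0.16 (SE), or 1.25-fold (limma adjusted p = 0.490). It was 0.30 ± 0.24 with knockout array 1 alone and 0.33 ± 0.18 without that array.

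Mpeg1, which encodes perforin-2, a pore-forming protein of phagocytes, was high on all knockout arrays but scattered in the wild type. It read 2880 (array 1), 2204 (array 2) and 2639 (array 3) in knockout glands, against 726, 1572 and 2212 in wild-type glands. Knockout array 2 fell just under wild-type array 3, so that the groups overlapped. The mean was 2574 ± 343 in knockout glands and 1503 ± 745 in wild-type glands (SD, n = 3 each), with a log2 change of 0.90 ± 0.36 (SE, limma adjusted p = 0.409). With only knockout array 1 it was 1.07 ± 0.57, and Mpeg1 was the only one of the 9 genes that was highest on that array. Its second probe set was too dim to test, at 5.78 to 98.5 in knockout and 6.11 to 82.6 in wild-type arrays.

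The 3 chains of C1q, which lie side by side in the genome and are assembled into one molecule, followed knockout arrays 2 and 3. C1qb read 1704, 4689 and 3685 on knockout arrays 1 to 3, against 1986, 2056 and 1946 on the wild-type arrays. The wild-type arrays differed little from each other, and the knockout arrays fell on both sides of them. Its mean was 3359 ± 1519 in knockout glands and 1996 ± 55.5 in wild-type glands (SD, n = 3 each), with a log2 change of 0.63 ± 0.33 (SE, limma adjusted p = 0.505).

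C1qc read 3591, 7849 and 5930.4 on knockout arrays 1 to 3, against 2995, 3603 and 4166 on the wild-type arrays. Its log2 change was 0.63 ± 0.27 (SE, limma adjusted p = 0.427). C1qa read 3044, 5764 and 4363 on the knockout arrays, against 3923, 2815 and 3710 on the wild-type arrays. Both genes had knockout array 1 within the range of the wild type and the other 2 knockout arrays above it. C1qa had the smaller log2 change, 0.30 ± 0.24 (SE, limma adjusted p = 0.679). The second C1qb probe set, designed with fewer probes than usual, read 709, 1793 and 1824 against 1050, 546 and 1393, a log2 change of 0.51 ± 0.44 (SE).

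Without knockout array 1 the log2 changes of the C1q chains were 1.05 ± 0.18 for C1qb, 0.94 ± 0.20 for C1qc and 0.54 ± 0.21 for C1qa. C1qb then passed (limma adjusted p = 0.0320) and C1qc did not (limma adjusted p = 0.0628). With knockout array 1 as the only knockout array the values were -0.23 ± 0.24, 0.01 ± 0.25 and -0.18 ± 0.26 in the same order, each within 1 SE of 0.

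The lysosomal members were high on the same arrays as C1q. Ctss, which encodes cathepsin S, the protease that trims the invariant chain from class II histocompatibility molecules, read 2540.5, 6440.3 and 5419 on knockout arrays 1 to 3, against 2823, 2268 and 2766 on the wild-type arrays. Knockout array 1 lay inside the wild-type range and the other 2 lay far above it. The mean was 4800 ± 2022 in knockout glands and 2619 ± 306 in wild-type glands (SD, n = 3 each), with a log2 change of 0.77 ± 0.31 (SE, limma adjusted p = 0.409). Without knockout array 1 it was 1.18 ± 0.18 and passed (limma adjusted p = 0.0190), and with only knockout array 1 it was -0.04 ± 0.25. Ctss and C1qb were the 2 members called without that array, where 1.89% of all probe sets tested were called.

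Cd68, a heavily glycosylated protein of late endosomes and lysosomes, read 1054, 2135 and 1754 on the knockout arrays, against 1166, 1518 and 1239 on the wild-type arrays. Here knockout array 1 was the lowest of the 6 arrays. The log2 change was 0.28 ± 0.28 (SE, limma adjusted p = 0.745), and -0.30 ± 0.31 with knockout array 1 alone. A second Cd68 probe set was not tested, with at most 227 in knockout and 83.1 in wild-type arrays.

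Lyz2, the lysozyme of macrophages and granulocytes, varied widely among the wild-type arrays. It read 1713, 5426 and 3845 on knockout arrays 1 to 3, against 2191, 1016 and 3090.0 on the wild-type arrays. The groups overlapped, and the log2 change was 0.79 ± 0.47 (SE, limma adjusted p = 0.559). The probe set shared with Lyz1, the lysozyme of Paneth cells in the gut, read 1096, 3716 and 1777 on the knockout arrays, against 1378, 295 and 2833 on the wild-type arrays. Its log2 change of 0.86 ± 0.73 (SE, limma adjusted p = 0.691) rested on wild-type array 2, without which it was -0.030. Another Lyz2 probe set was too dim to test, at 47.4 to 209 in knockout and 23.9 to 247 in wild-type arrays.

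Adgre1, which encodes the F4/80 antigen used to stain mouse macrophages, stayed under the brightness filter on both of its probe sets. The brighter one read 108, 329 and 558 on knockout arrays 1 to 3, against 119, 585 and 132 on the wild-type arrays, and was dimmer than 74.4% of the probe sets on the array. The other read 124, 44.4 and 189 on the knockout arrays, against 66.9, 26.0 and 113 on the wild-type arrays. Neither separated the genotypes, and the highest value of the brighter one was a wild-type array. Without a filter their log2 changes were 0.34 ± 0.74 and 0.65 ± 0.61 (SE), with limma adjusted p values of 0.937 and 0.822. This defining marker was therefore not measured well enough to bear on the others.

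**Figure D2:**
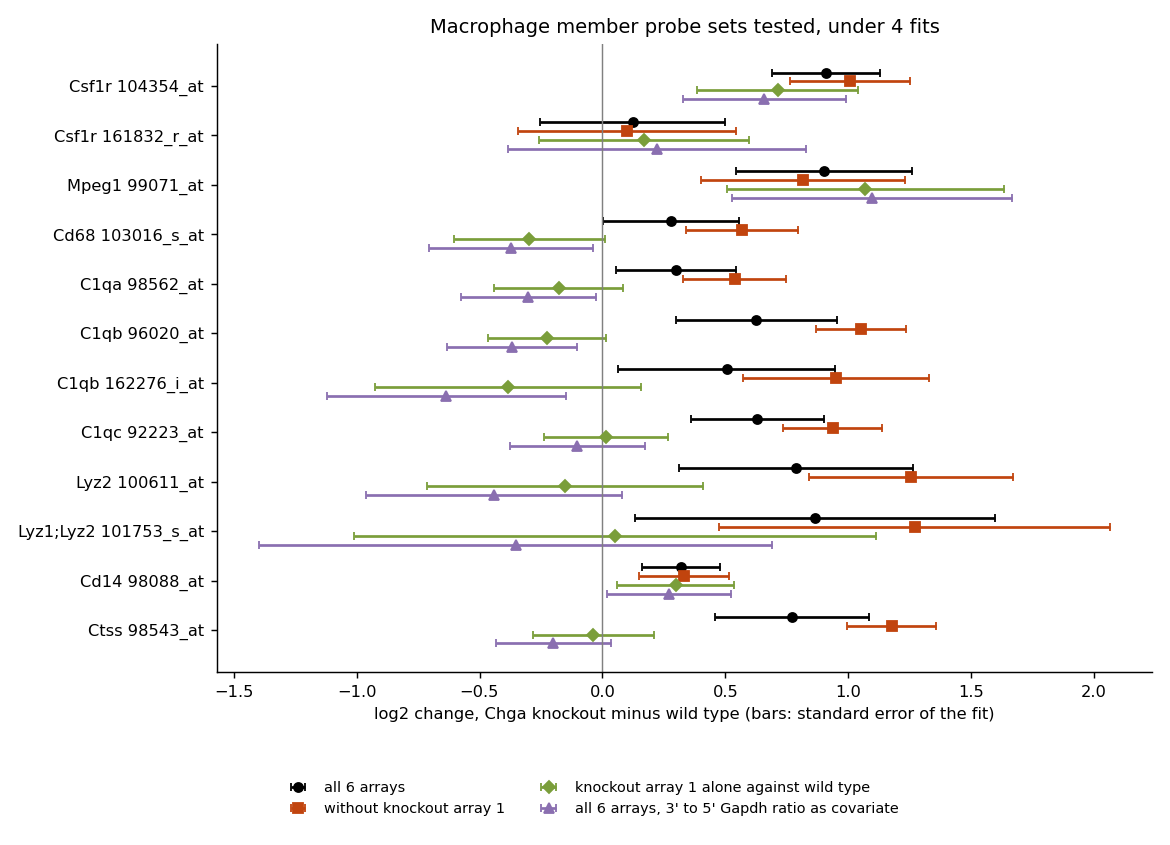
Log2 change (knockout minus wild type, bars standard error) of the 12 member probe sets tested, under the fit to all 6 arrays, the fit without knockout array 1, the fit with no other knockout array than array 1, and the fit with the log2 3' to 5' Gapdh ratio as a covariate. The 3 C1q genes, Cd68, Lyz2 and Ctss change sign or lie near 0 in the last 2 fits, while Csf1r, Mpeg1 and Cd14 stay above 0 in all 4. The last 2 fits are not independent, as the ratio was high on knockout arrays 2 and 3 alone.

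Promoter windows are shown for C1qb, C1qc, Ctss and Lyz2, the members of largest log2 change among those high on knockout arrays 2 and 3 and not on knockout array 1. They are from the RefSeq promoter table, build GRCm38.p6, which held 6 of the 10 members: Mpeg1, Cd68, C1qb, C1qc, Lyz2 and Ctss. Each run ends at the base before the annotated start of the gene, and reads 5′ to 3′ along the gene. Capitals mark GAGGAA, the core of the site of PU.1, a transcription factor of myeloid cells encoded by Spi1, or the same letters on the other strand.
C1qb promoter, chr4:136886201-136886450, minus strand: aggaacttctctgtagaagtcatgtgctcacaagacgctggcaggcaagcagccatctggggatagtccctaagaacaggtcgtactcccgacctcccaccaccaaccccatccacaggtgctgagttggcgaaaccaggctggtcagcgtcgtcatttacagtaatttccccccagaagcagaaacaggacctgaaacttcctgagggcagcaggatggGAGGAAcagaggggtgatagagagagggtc
C1qc promoter, chr4:136892915-136893164, minus strand: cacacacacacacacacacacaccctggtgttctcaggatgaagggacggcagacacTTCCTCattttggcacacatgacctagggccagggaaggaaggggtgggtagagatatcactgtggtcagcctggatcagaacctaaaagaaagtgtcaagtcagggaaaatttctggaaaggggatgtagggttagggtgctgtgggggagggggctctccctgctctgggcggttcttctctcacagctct
Ctss promoter, chr3:95526536-95526785, plus strand: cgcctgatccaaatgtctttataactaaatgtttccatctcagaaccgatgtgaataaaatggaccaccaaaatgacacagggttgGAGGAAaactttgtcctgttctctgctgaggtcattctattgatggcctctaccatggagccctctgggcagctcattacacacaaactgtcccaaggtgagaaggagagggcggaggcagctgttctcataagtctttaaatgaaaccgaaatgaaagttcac
Lyz2 promoter, chr10:117282273-117282522, minus strand: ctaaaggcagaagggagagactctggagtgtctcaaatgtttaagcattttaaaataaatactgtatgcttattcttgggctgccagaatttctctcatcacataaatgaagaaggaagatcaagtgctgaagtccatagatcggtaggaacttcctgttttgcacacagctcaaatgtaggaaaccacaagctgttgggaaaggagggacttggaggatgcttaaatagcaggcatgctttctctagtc

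GAGGAA occurred, on either strand, in the windows of 4 of the 6 members, Cd68, C1qb, C1qc and Ctss, and in 28.3% of all 32851 windows of the table. The windows searched run past the gene start, beyond the bases printed. In C1qb the match starts 30 bases before the gene start and in Ctss 164 bases before it, both on the strand of the gene. Ctss holds another match, on the opposite strand, which starts at the first base of the gene and so is not among the printed bases. In C1qc it starts 193 bases before the gene start, on the opposite strand. The AP-1 letters TGANTCA were in 1 of the 6 windows, that of Cd68, and in 7.81% of all. The C/EBP letters TTNNGCAA were also in the Cd68 window alone, and in 10.8% of all. The E-box CACGTG was in 0 of the 6 and in 7.15% of all. Both strands were searched, and no motif was allowed mismatches beyond N. These are matches of letters in the window, not binding sites.

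Among genes that work with these markers, 1 was called. Of 133 genes on 9 lists, 106 were on the array and 61 were tested. In limma 1 of the 61 rose and 0 fell, which is 1.64% called, where 0.443% of all probe sets tested were. At an unadjusted p under 0.05, 7 of the 61 (11.5%) were higher and 0 were lower, where 5.06% and 6.25% of all probe sets tested were. Their median log2 change was 0.16, with 42 of 61 values higher (68.9%, where 48.9% of all were). All 3 knockout arrays lay above all 3 wild-type arrays for 6 of the 61, and for 7.55% of all probe sets tested. Those genes were Klf4, H2-Aa, Laptm5, Coro1a, Syk and Ccl9. Ccl9, at a mean of 785 in knockout and 480 in wild-type glands, passed the brightness filter of about 582 only through its knockout signals. So did Ccl6 (827 and 525), while Cxcl1 (543 and 818) passed only through its wild-type signals. All are counted among the 61. The gene that rose was Klf4, a zinc finger factor that is also induced by many stimuli, which read 11182, 8386 and 12407 on knockout arrays 1 to 3, against 4548, 2619 and 3410.2 on the wild-type arrays. Its log2 change was 1.61 ± 0.23 (SE, limma adjusted p = 0.0195), and all 3 knockout arrays lay above all 3 wild-type arrays. Klf4 did not pass when array 3 of the knockout or array 2 or 3 of the wild type was left out, when knockout array 1 stood alone, under eBayes without trend, or with the 3' to 5' Gapdh ratio as a covariate.

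Around the receptor, the ligand and an adaptor had higher values. Csf1, the ligand of the Csf1r product, read 1861, 3182 and 2819 on the knockout arrays, against 1372, 1356 and 2163 on the wild-type arrays (change on the log2 scale 0.68 ± 0.26, limma adjusted p = 0.402). Tyrobp, the signalling adaptor of several myeloid receptors, read 1079, 2596 and 1942 against 1083, 1110.4 and 1013, with knockout arrays 2 and 3 above the other 4 (log2 change 0.71 ± 0.31, limma adjusted p = 0.427). The cytokine receptor genes Csf2ra and Csf3r had log2 changes of -0.01 and 0.00. None of the 4 tested passed.

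Surface receptors of macrophages that were bright enough to test had values near 0. Of the 6 tested, 0 passed, and their median log2 change was 0.02. The fractalkine receptor gene Cx3cr1 read 2156, 1975 and 2136 on knockout arrays 1 to 3, against 2611, 2498 and 2110 on the wild-type arrays, a log2 change of -0.20 ± 0.17 (SE, limma adjusted p = 0.688). The mannose receptor gene Mrc1 had a log2 change of 0.24 and the complement receptor gene C5ar1 one of 0.14. Among those too dim to test were Msr1, Marco, Siglec1, Itgam and Itgb2. Msr1 read 213, 221 and 332 on knockout arrays 1 to 3, against 433, 497 and 363 on the wild-type arrays. Itgam read 41.9, 50.4 and 68.9 against 101, 83.8 and 89.4. Both thus lay lower on every knockout array, while Marco, Siglec1 and Itgb2 overlapped between the genotypes. Dim genes on the other macrophage pathway lists went the other way. Fcgr2b, Ptpn6, Lgals3 and Cxcl10 lay higher on every knockout array than on any wild-type array. The share of all dim probe sets that separated in either direction was not counted. Without a filter the log2 changes of Msr1 and Itgam were -0.74 and -0.64 (limma adjusted p = 0.635 and 0.711). Of the Fc receptor genes, only Fcgr1 was tested, with a log2 change of 0.20 (limma adjusted p = 0.845). The dim Fcgr2b read 410, 270 and 569 on knockout arrays 1 to 3, against 157, 198 and 68.4 on the wild-type arrays. Fcgr3 and Fcer1g, also dim, had log2 changes of -0.16 and -0.90 without a filter.

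Lysosomal genes other than Ctss and Cd68 had values on both sides of 0. Of 17 tested, 0 passed and 5 had higher values, with a median log2 change of -0.10. Ctsf, cathepsin F, had the smallest p of that list, with a log2 change of 0.32 (limma adjusted p = 0.508), and Ctse and Lamp2 had changes of -0.60 and -0.33. Ctsb, cathepsin B, which most cell types make, was at -0.01. Complement genes other than C1q had a median of 0.31, all 6 of those tested having higher values and 0 passing. C1ra, a protease that binds C1q, read 3482, 5401 and 5613 on the knockout arrays, against 2161, 3813 and 3690 on the wild-type arrays (change 0.60 ± 0.27 on the log2 scale, limma adjusted p = 0.445). Cd59a and Serping1, which restrain complement, had log2 changes of 0.33 and 0.29.

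Class II antigen presentation had the highest median of the 9 lists. All 7 tested genes had higher values, with a median log2 change of 0.73, and 0 passed. H2-Aa, a class II chain, read 2280.2, 3994 and 4827 on knockout arrays 1 to 3, against 1032, 1615 and 2199 on the wild-type arrays, with no overlap (log2 change 1.19 ± 0.34, limma adjusted p = 0.259). Cd74, the invariant chain that cathepsin S cleaves, read 5553, 11996 and 16826 against 4216, 5895 and 6216, and H2-Ab1 read 1055, 1904 and 2289 against 878, 1113 and 1014. Cd74 (log2 change 0.95 ± 0.36, limma adjusted p = 0.397) passed without knockout array 1, at 1.40 (limma adjusted p = 0.0202). On knockout array 1 by itself the 7 genes had a median of 0.08. B cells and dendritic cells make these transcripts too.

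Phagocyte signalling and cytokine genes gave no call either. Of 9 genes of the oxidase and its signalling, 0 passed and 7 had higher values. Laptm5, a lysosomal protein of blood cells, read 4052, 4083 and 4747 against 2749, 3699 and 3343, with no overlap (log2 change 0.40 ± 0.17, limma adjusted p = 0.416). Coro1a and Syk, a cytoskeletal protein of leukocytes and a kinase downstream of immune receptors, also did not overlap between the genotypes, with log2 changes of 0.73 and 0.40. Spi1, which encodes PU.1, read 558, 1209 and 1280 on the knockout arrays, against 455, 869 and 736 on the wild-type arrays (a change of 0.51 ± 0.39 on the log2 scale, limma adjusted p = 0.658), and Cebpa, a myeloid factor also made by fat and liver, had a change of 0.13. Of 5 cytokine and chemokine genes tested, Apoe, Ccl9 and Cxcl1 had the smallest p, with log2 changes of 0.58, 0.81 and -0.70, and 0 passed. Ccl9 had reached the brightness filter only through its knockout signals, and Cxcl1 only through its wild-type signals. The other 13 on the array, among them Il1b, Tnf, Il6 and Ccl2, were too dim to test.

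**Figure D3:**
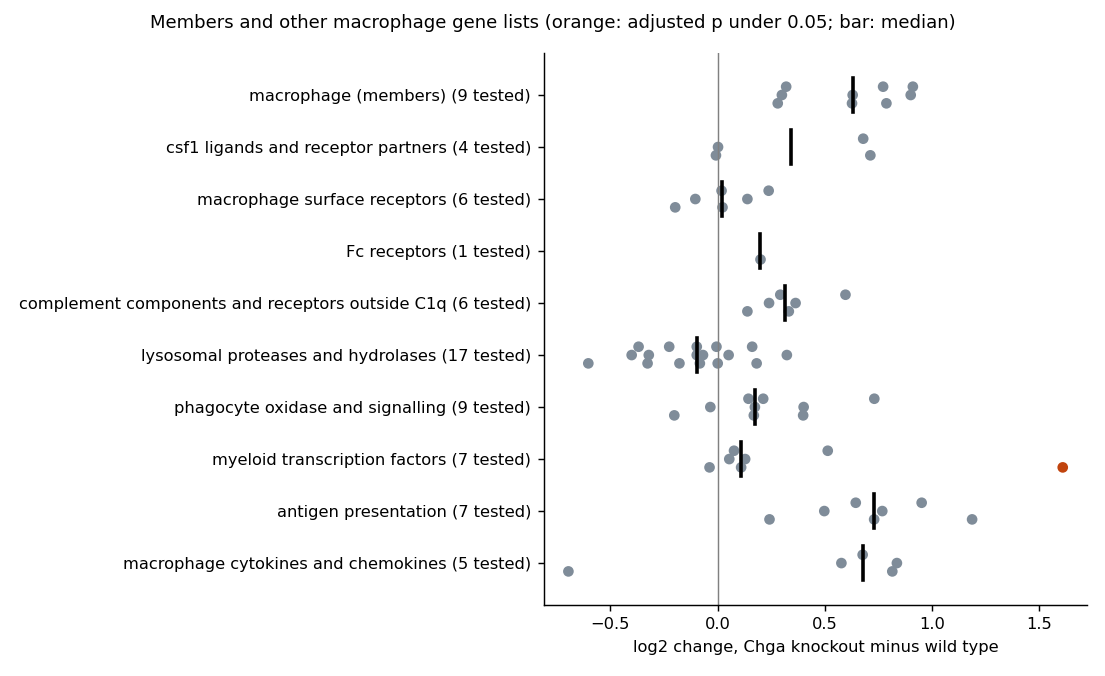
Log2 change (knockout minus wild type) of each tested gene of the 9 lists around the members, with the 9 tested members on top. Bars give list medians, from -0.10 for lysosomal genes to 0.73 for antigen presentation, and the one orange point is Klf4.

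Markers of other cells were summed over each list to set the arrays side by side. The 10 members summed to 23350.4, 42211 and 35649 on knockout arrays 1 to 3, against 21745, 19653 and 24195 on wild-type arrays 1 to 3. The 12 skeletal muscle genes summed to 5316, 75801 and 38229 on the knockout arrays, against 5439, 6362 and 5154 on the wild-type arrays. Both sums had the order of knockout array 2, then 3, then 1, as had 8 of the 14 lists, the others being neutrophil, B cell, endothelial, fibroblast, adipocyte and liver. With the brightest gene of each list left out, a choice made after seeing the data, 6 of the 14 had that order. The B cell and endothelial lists then did not. The 11 neutrophil genes summed to 10653, 19902 and 16617 on the knockout arrays, against 9415, 12140.4 and 14165 on the wild-type arrays. Of the 5 tested, S100a8 had the smallest p (limma adjusted p = 0.570), reading 518, 4502 and 2757 against 550.3, 234 and 2271. The median log2 change of the 5 was 0.03, with Camp at 0.55, Lcn2 at 0.03, Csf3r at 0.00 and Elane at -0.18. Of those 11 genes, 6 were too dim to test, the granule genes Ngp, Ltf and Mpo among them. Without a filter their log2 changes were 1.73 for S100a9, 1.24 for Ltf, 0.76 for Ngp, 0.34 for Mpo, -0.05 for Mmp9 and -0.14 for Ly6g. S100a9, Ltf and Ngp were highest on knockout array 2. The dim S100a9 read 323, 2310 and 1003 on knockout arrays 1 to 3, against 181, 122 and 798 on the wild-type arrays (limma adjusted p without a filter = 0.597).

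Endothelial, fibroblast and chromaffin sums did not overlap between the genotypes. The 9 endothelial genes summed to 32884 to 42026 in knockout and 30584 to 31856 in wild-type arrays, and the 8 fibroblast and capsule genes to 59994 to 71057 and 43071 to 57643. The 5 chromaffin genes summed to 167425 to 181483 in knockout and 138855 to 153067 in wild-type arrays. Each of these separations rested on the brightest gene of its list, as sums taken without it, an alternative chosen after seeing the data, overlapped. Without Eng the endothelial sums were 20138, 26981 and 26984 on knockout arrays 1 to 3, against 21818, 21168 and 21140 on the wild-type arrays, so that knockout array 1 was the lowest. Without Dcn the fibroblast sums were 28594, 40043 and 37081 on the knockout arrays, against 25502, 28693 and 38216 on the wild-type arrays. Without Chgb the chromaffin sums were 75932, 61284 and 69216 on the knockout arrays, against 83762, 61731 and 67745 on the wild-type arrays. Sums overlapped for the other blood cell lists. T cell genes ranged over 2544 to 3568 in knockout and 1501 to 2629 in wild-type arrays, B cell genes over 6494 to 8192 and 5694 to 7606, dendritic cell genes over 6862 to 9229 and 7423 to 9194, and mast cell genes over 3130 to 4624 and 3218 to 5132. Without Cd4, their brightest gene, the T cell sums did not overlap, at 1733 to 1984 in knockout and 856 to 1451 in wild-type arrays. The largest part of those sums in knockout arrays was Thy1, too dim on average to test and also on the fibroblast list. Thy1 read 1145, 1173 and 1102 on knockout arrays 1 to 3, against 245, 144 and 653 on the wild-type arrays. Every other gene of the T cell list overlapped between the genotypes. The T cell receptor chains Cd3d, Cd3e and Cd3g were all too dim to test, and no marker on any list was at exactly 0. The sums of the 7 adipocyte genes were 37987 to 66900 and 32353 to 57781, of the 5 liver genes 16510 to 35377 and 12807 to 34929, and of the 3 erythroid genes 74416 to 109476 and 83688 to 171984. Cortical genes summed to 380631 to 449213 and 361969 to 442802. The part of any of these cell types in the members' values was not tested.

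**Figure D4:**
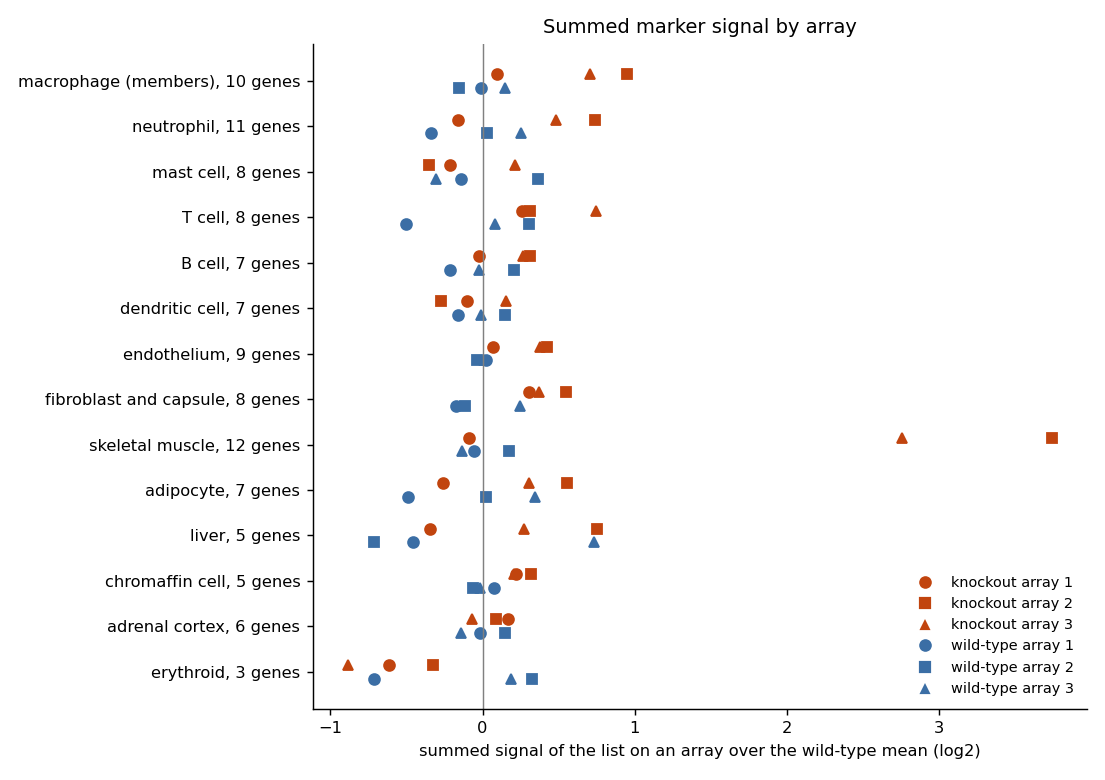
Summed signal of each marker list on an array over the mean of the wild-type arrays (log2), with knockout arrays above wild-type arrays in each row. Knockout arrays 2 and 3 lie above the other 4 arrays for 7 of the 14 lists: the macrophage members, skeletal muscle, neutrophil, T cell, B cell, endothelium and fibroblast. Without the brightest gene of each list (not drawn) this held for 5: the macrophage members, skeletal muscle, neutrophil, endothelium and liver.

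Genes outside the members were ranked by how closely their pattern over the 6 arrays followed that of the members. Likeness was Pearson's r with the mean standardized log2 signal of the 10 members, given as a description over 6 arrays that share the 2 high knockout arrays. Among the genes tested, the 8 nearest were Cx3cl1 (r = 0.995), Cyba (0.995), Ltbp4 (0.989), Gstm1 (0.988), Fgf11 (0.981), Kcnk1 (0.981), Bgn (0.980) and Rrad (0.979). Cx3cl1, the ligand of the fractalkine receptor, read 3232, 4834 and 4777 on knockout arrays 1 to 3, against 3011, 3031 and 3237 on the wild-type arrays. Cyba, a subunit of the phagocyte oxidase, read 3994, 4573 and 4487 against 3951, 3838 and 4004, and was the only one of the 8 on a list of macrophage genes. Bgn and Ltbp4 encode matrix proteins, and the probe set of Gstm1 belongs to a family of similar genes that it may not tell apart. Among the members, r was 0.986 for Ctss, 0.963 for C1qc and 0.959 for C1qb, and it was 0.465 for Mpeg1 and 0.459 for Adgre1. Each member, the dim Adgre1 included, is itself part of that mean, which raises its r, unlike that of genes outside it. The muscle gene Myh1, too dim on average to be tested, had r = 0.998, Acta1 0.930 and Alb 0.961.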

How the data were processed

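The data are linear intensities of 6 single-colour Affymetrix arrays, 1 value for each probe set. Per the submitters' processing notes the authors used MAS5, and its version and scaling target were not given in the sources used here. No detection calls were used. The trimmed mean of these deposited intensities was 2501 on all 6 arrays, so they were taken as scaled. Of 12488 probe sets, 66 controls were left out. The other 12422 had 1 gene symbol (10833), several (396) or none (1193). Symbols were updated by Entrez identifier with RefSeq (GRCm38.p6), where 16 had no match. The files name no genome build.

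Probe sets whose mean of log2(signal + 16) lay under the 40th percentile, a signal of about 582, were not tested, which left 7453. Genotypes, taken from the sample titles, were compared in limma 3.58.1 (R 4.3.3, lmFit and eBayes, trend by intensity). P-values were adjusted over those 7453 by Benjamini-Hochberg, at a threshold of 0.05, and every adjusted p printed comes from limma. Log2 changes with this pseudocount understate those of dim genes. Precision rests on 3 arrays per genotype. A listed gene was read on its brightest tested probe set, and summed on its brightest of any level. The members and lists were chosen with earlier results of these data known. Genes were named as follows: all members, the 3 of smallest p and any called one of each pathway list, the 8 of most similar pattern, and Chga, Acta1, Myh1 and Alb. Others were chosen after their values were seen. The alternatives were 2 pseudocounts, 2 filters, 3 normalizations, 2 variance settings, array weights, a replicate block, the 3' to 5' Gapdh ratio as a covariate, each array left out, and knockout array 1 alone.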

Additional observations from a re-analysis of the deposited data

How the results depend on the processing

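No member passed in the fit to all 6 arrays or under any alternative except without knockout array 1, where 2 did, Ctss and C1qb. The leave-one-out fits gave between 0 and 2 member calls, a median log2 change of the members between 0.37 and 0.94, and between 0 and 2 calls among the genes of the other lists. With the 3' to 5' Gapdh ratio as a covariate the members' median was -0.20, and with knockout array 1 alone it was -0.037. These 2 fits are not independent, since the ratio was high on knockout arrays 2 and 3 alone. The cause was not tested. Calls on the other lists numbered 1, and 0 under eBayes without trend, with the 3' to 5' covariate and with knockout array 1 alone. With the replicate block there were 2, Klf4 and H2-Aa, and no member call. Deviations of same-numbered arrays correlated with r of 0.26, -0.04 and -0.04. The first was the highest of all pairs of a knockout and a wild-type array, and differently numbered pairs ranged from -0.18 to 0.25. With 3 arrays per genotype this cannot decide whether same-numbered arrays share more than a label. Over all probe sets, calls numbered 33, and 57 with the block, 17 without trend, 12 with the covariate and 13 with knockout array 1 alone. Leaving out knockout array 1 gave 141 calls, knockout array 3 15, wild-type array 2 17 and wild-type array 3 19. Under the covariate, 8 member probe sets changed sign: Cd68 to -0.37, C1qa to -0.30, C1qb to -0.37 and -0.63, C1qc to -0.10, Lyz2 to -0.44, the probe set shared by Lyz1 and Lyz2 to -0.35, and Ctss to -0.20. With knockout array 1 alone, 6 did: Cd68 to -0.30, C1qa to -0.18, C1qb to -0.23 and -0.38, Lyz2 to -0.15 and Ctss to -0.037. The shared lysozyme probe set ranged from -0.030, without wild-type array 2, to 1.57 over the leave-one-out fits. The dimmer Csf1r probe set fell under the filter without knockout array 3, and 4 of the 12 did at the 60th percentile. Dim probe sets limit what can be said of Adgre1.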
